A study of Mus musculus with 12 samples.

Results

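Semaphorins, plexins and neuropilins were described across RNA-seq libraries of mouse embryonic fibroblasts kept with the compound WM-2474 or with its vehicle for 96 h or 240 h. The family was taken by gene symbol: Sema with a number and letter, Plxn with a letter and an optional number, Nrp1 and Nrp2. That rule found 31 of 26305 gene identifiers in the table, namely 20 semaphorins, 9 plexins and 2 neuropilins. Of these, 29 passed the filter on low counts and were tested, and Sema3g and Plxnb3 did not pass it. The 4 groups, each of 3 libraries, were WM-2474 for 240 h, WM-2474 for 96 h, DMSO for 240 h and DMSO for 96 h. WM-2474 was given at 10 µM and is labelled an inactive control compound; DMSO was the vehicle control. All groups were wild-type male C57BL/6 fibroblasts from E13.5 embryos, grown under 3% O2. The labels give the 3 samples of a group as biological replicates without naming the embryos or cultures, so p-values measure the spread between these samples. No untreated or 0 h sample was analysed here, so a difference between times is one between 240 h and 96 h of culture with either agent.

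Semaphorins are secreted or membrane-bound signalling proteins that share the sema domain, by which they bind plexins on the receiving cell. Plexins carry a cytoplasmic GTPase-activating domain and act on the actin cytoskeleton and integrin adhesion. Most secreted class 3 semaphorins cannot bind a plexin alone and use neuropilin-1 or neuropilin-2 as the binding partner, and both neuropilins also bind forms of VEGF. The family is best known for repelling growing axons, and in mesenchyme it takes part in vessel patterning, cell migration and bone formation.

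The libraries held between 7313007 and 26019167 counts, and the family took 0.200% to 0.219% of them. The common biological coefficient of variation was 5.22%. Levels are given as CPM (counts scaled to the size of the library, here with TMM factors) per kilobase of exon, abbreviated CPKM, so that genes can be compared, and differences are log2 fold changes from edgeR's quasi-likelihood fit on all 12 libraries. A change was called at a Benjamini-Hochberg adjusted p under 0.05 over the 13499 genes tested. All 14 listed fibroblast markers were detected, led by Col1a1 at 15936 to 18791 CPM at 240 h, against 10628 to 14232 CPM at 96 h. DMSO 240 h replicates 1 and 2 stood apart from the other 10 libraries in B lineage genes other than Ebf1, which summed to 9.48 and 10.3 CPM there and to 0.512 to 2.20 CPM elsewhere. Some values that rest on the DMSO 240 h group are therefore also given without that pair.

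The 3 most abundant members were receptors. Plxnb2, the receptor of Sema4c and other class 4 semaphorins, was first at a mean of 93.4 CPKM over the 12 libraries, and its range of 85.6 to 102 CPKM met that of no other member. Plxna1, a plexin used by Sema3a with neuropilin-1, followed at 50.6 CPKM, and Nrp1 at 48.4 CPKM, and their ranges overlapped each other and no other member's. The leading ligands were Sema3c at 15.3 CPKM and Sema3f at 14.2 CPKM, both secreted class 3 proteins, next to Nrp2 at 11.6 CPKM and Sema3a at 11.4 CPKM. From Sema3c down to Plxnb3, every neighbour in the order of mean levels overlapped the one above it. The tested members at the low end were Sema4d at 0.187 CPKM, Sema4a at 0.235 CPKM, Sema6b at 0.574 CPKM and Sema4f at 0.616 CPKM. Sema3g held 2 to 6 counts per library and Plxnb3 0 to 12 counts.

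**Figure D1:**
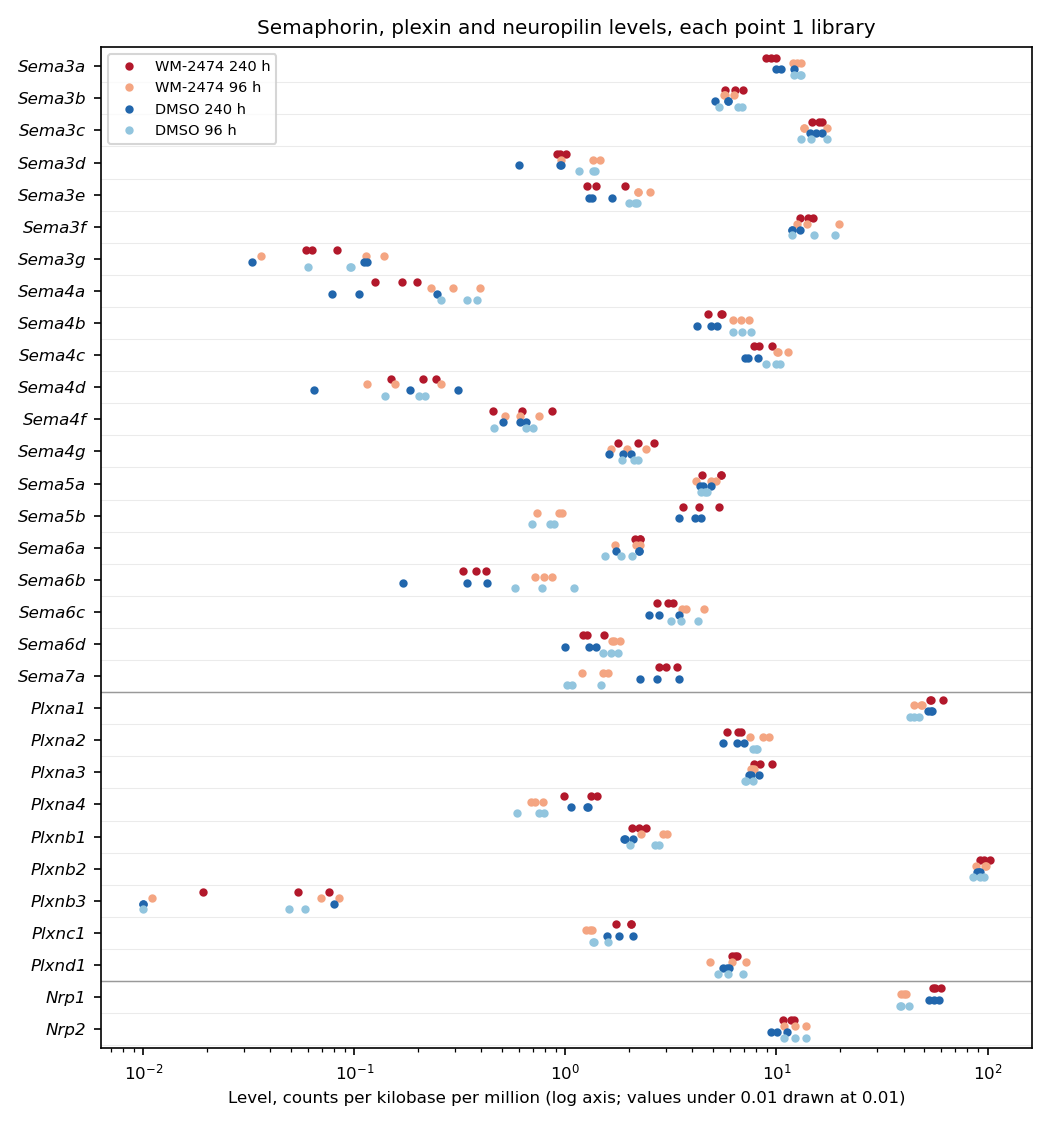
Level of each of the 31 members in each of the 12 libraries, in CPKM on a log axis, with WM-2474 in red and DMSO in blue and 240 h in the darker shade. Plxnb2 lies furthest right at 85.6 to 102 CPKM, and the dark and pale points of Sema5b, at 3.46 to 5.33 and 0.694 to 0.958 CPKM, do not meet.

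Much of the family differed between the culture times, in both directions. Over both treatments, 6 members were higher at 240 h than at 96 h and 12 were lower, of 29 tested (18 members, 62.1%). Of all genes tested, 23.0% were called higher, 23.6% lower and 46.5% either way. Without DMSO 240 h replicates 1 and 2, which leaves 1 library in that group, the family's median log2 fold change was -0.0005, next to -0.0052 over all genes. The 6 that rose were Sema5b, Sema7a, Plxna4, Nrp1, Plxnc1 and Plxna1. The 12 that fell were Sema6b, Sema4a, Sema3e, Sema3d, Sema4b, Sema6d, Sema6c, Plxna2, Sema3a, Sema4c, Plxnb1 and Nrp2. Of these, Sema4a held only 2 to 16 counts per library. By role, the semaphorins had 2 members higher and 9 lower of 19 tested, with a median log2 fold change of -0.23. Plexins had 3 higher and 2 lower of 8, and of the neuropilins Nrp1 was higher and Nrp2 lower. The family's median log2 fold change was -0.011, next to -0.0062 over all genes. In 9 members the 6 libraries at 240 h did not overlap the 6 at 96 h, 5 of them higher and 4 lower, while 25.0% of all genes were separated in this way. Without the DMSO 240 h pair, which was left out here after the data were seen, it was 12 members, 6 higher and 6 lower, and 29.5% of all genes, although fewer libraries overlap less often by construction.

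**Figure D2:**
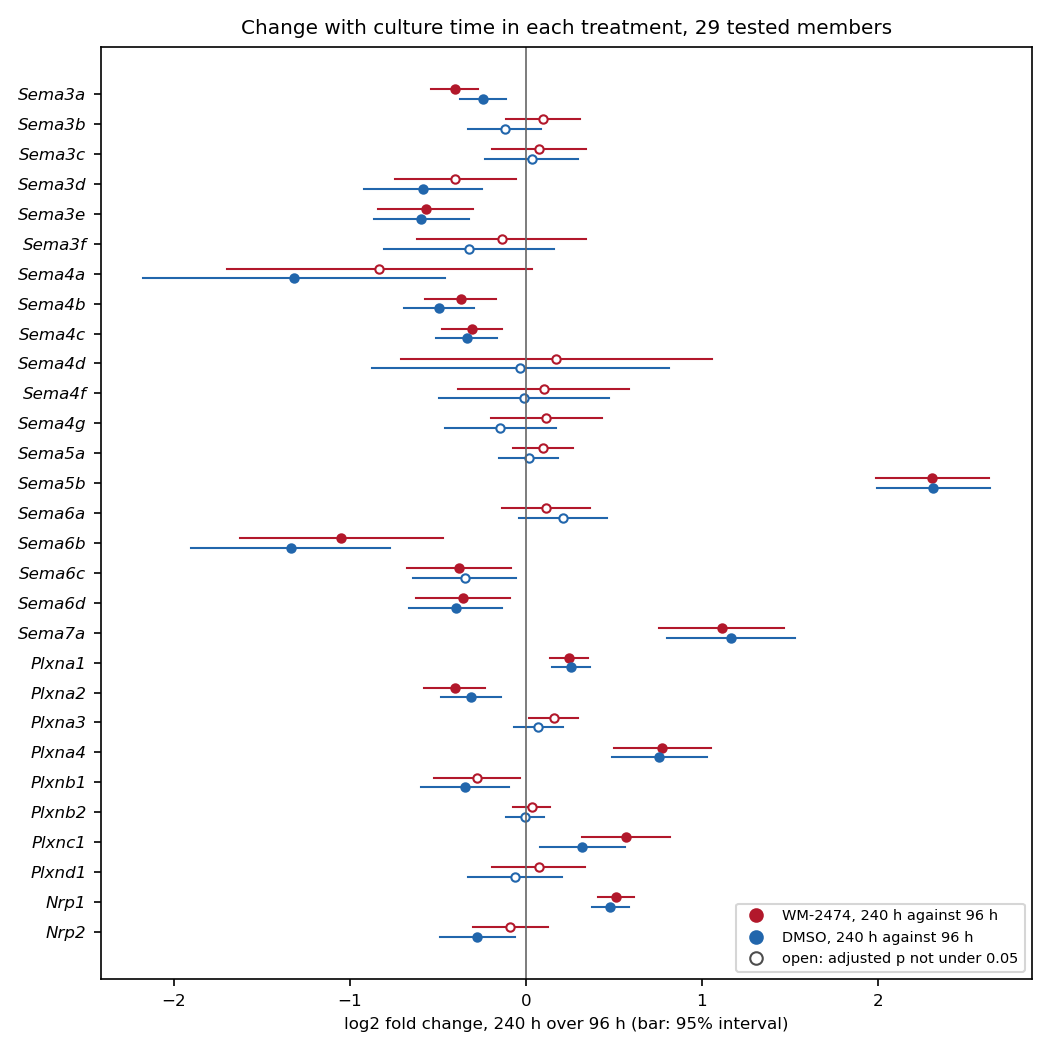
Change between 240 h and 96 h in WM-2474 cultures and in DMSO cultures for the 29 tested members, as log2 fold changes with 95% intervals, where filled points passed an adjusted p of 0.05. Sema5b lies furthest right at 2.31 with WM-2474 and 2.32 with DMSO, and the other members that passed lie between -1.34 and 1.16.

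Other expression differences of the cultures moved with time as well. All 12 proliferation genes listed fell, and their summed level was 704 to 825 CPM at 240 h, against 1028 to 1097 CPM at 96 h. Of 14 fibroblast markers 9 rose and 3 fell, and their sum was 38575 to 43136 CPM at 240 h, against 26210 to 31426 CPM at 96 h. Muscle genes summed to 255 to 339 CPM at 240 h, against 139 to 163 CPM at 96 h. Most of that sum was Acta1, at 222 to 301 CPM at 240 h, against 113 to 139 CPM at 96 h. Of the 7 muscle genes listed 4 were tested, of which 3 rose and 1, Actc1, fell. Actc1 had only 0.136 to 0.578 CPM at 240 h, against 0.588 to 1.71 CPM at 96 h, so its fall carries little weight. The part of these shifts in the changes of the family was not tested. In bulk samples, fewer cells of a type and less RNA per cell cannot be told apart.

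Sema5b had the largest change of the family and ranked 8th highest of all 13499 genes by log2 fold change. It encodes a membrane semaphorin with thrombospondin repeats, which in mouse retina acts with Sema5a through Plxna1 and Plxna3 to confine neurites. The gene lies on chromosome 16, 35541154 to 35664261 (plus strand; GRCm38.p6, as are all positions here). Sema5b had 5.33, 3.59 and 4.31 CPKM in WM-2474 cultures at 240 h, against 0.933, 0.958 and 0.730 CPKM at 96 h. Sema5b with DMSO had 4.13, 3.46 and 4.39 CPKM at 240 h, against 0.880, 0.694 and 0.844 CPKM at 96 h. Every library at 240 h was more than 3-fold above every library at 96 h. The log2 fold change was 2.31 ± 0.16 (SE, adjusted p = 1.5e-11) with WM-2474 and 2.32 ± 0.16 (SE, adjusted p = 1.18e-11) with DMSO. Its relative Sema5a, which has the same domain layout, had 4.34 to 5.48 CPKM at 240 h, against 4.17 to 5.17 CPKM at 96 h, and its log2 fold change over both treatments was 0.056 ± 0.058 (SE, adjusted p = 0.452). The ratio of Sema5b to Sema5a levels was 0.786 to 0.979 at 240 h, against 0.149 to 0.230 at 96 h. Neural and glial markers summed to 121 to 139 CPM at 240 h, against 98.8 to 114 CPM at 96 h. Of the 12 in that list 6 were tested, and 2, Map2 and Stmn2, rose and 3, among them S100b and Sox10, fell. S100b had only 0.381 to 0.976 CPM at 240 h, against 0.672 to 2.06 CPM at 96 h, so its fall carries little weight. Rbfox3 was at 0 and Snap25 and Elavl3 were at or under 3 counts in all libraries.

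Sema7a rose in both treatments, and the plexin that binds it rose with WM-2474 and less firmly with DMSO. Sema7a is a membrane semaphorin held by a GPI anchor, which binds Plxnc1 and beta-1 integrins, and its gene lies on chromosome 9, 57939596 to 57962865. Sema7a had 2.78, 3.37 and 3.00 CPKM in WM-2474 cultures at 240 h, against 1.20, 1.51 and 1.59 CPKM at 96 h. Sema7a with DMSO had 2.72, 3.44 and 2.25 CPKM at 240 h, against 1.08, 1.02 and 1.47 CPKM at 96 h. The times did not overlap, and the log2 fold change was 1.11 ± 0.17 (SE, adjusted p = 1.43e-05) with WM-2474 and 1.16 ± 0.18 (SE, adjusted p = 1.12e-05) with DMSO. Plxnc1 had 2.05, 1.73 and 2.05 CPKM in WM-2474 cultures at 240 h, against 1.31, 1.25 and 1.33 CPKM at 96 h. Plxnc1 with DMSO had 2.09, 1.58 and 1.79 CPKM at 240 h, against 1.59, 1.37 and 1.35 CPKM at 96 h. With DMSO, 240 h replicate 2 lay just below 96 h replicate 1, so those groups met. Its log2 fold change was 0.57 ± 0.12 (SE, adjusted p = 0.000733) with WM-2474 and 0.32 ± 0.12 (SE, adjusted p = 0.0364) with DMSO. The difference of these time effects was 0.25 ± 0.17 (SE, adjusted p = 0.977) and was not called. The DMSO call of Plxnc1 was lost without DMSO 240 h replicate 1 (adjusted p = 0.146), DMSO 240 h replicate 3 (adjusted p = 0.0945), DMSO 96 h replicate 2 (adjusted p = 0.106) or DMSO 96 h replicate 3 (adjusted p = 0.131).

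Of the neuropilins, Nrp1 rose and Nrp2 was lower by a narrow margin. Nrp1 is the binding partner of Sema3a and of VEGF-A, and lies on chromosome 8, 128358591 to 128505476. Nrp1 had 55.2, 60.4 and 56.1 CPKM in WM-2474 cultures at 240 h, against 41.1, 40.3 and 39.1 CPKM at 96 h. Nrp1 with DMSO had 55.8, 59.1 and 53.0 CPKM at 240 h, against 42.6, 39.0 and 38.5 CPKM at 96 h. All libraries at 240 h lay above all libraries at 96 h, and the log2 fold change was 0.51 ± 0.051 (SE, adjusted p = 1.24e-08) with WM-2474 and 0.48 ± 0.051 (SE, adjusted p = 3.67e-08) with DMSO. The increase was 39.4% with DMSO. Nrp2, preferred by Sema3f and by the lymphatic ligand VEGF-C, had 11.7, 12.2 and 10.8 CPKM in WM-2474 cultures at 240 h, against 12.2, 13.8 and 10.9 CPKM at 96 h. Nrp2 with DMSO had 10.1, 11.2 and 9.42 CPKM at 240 h, against 12.2, 13.8 and 10.9 CPKM at 96 h. The times overlapped in both treatments. Its log2 fold change was -0.18 ± 0.070 (SE, adjusted p = 0.0466) over both treatments, -0.088 ± 0.098 (SE, adjusted p = 0.552) with WM-2474 and -0.28 ± 0.099 (SE, adjusted p = 0.0453) with DMSO. The call over both treatments was lost in 10 of 20 alternative fits, with adjusted p between 0.000287 and 0.119, among them those without DMSO 240 h replicate 1 (adjusted p = 0.084), DMSO 240 h replicate 3 (adjusted p = 0.119), DMSO 96 h replicate 1 (adjusted p = 0.102), DMSO 96 h replicate 2 (adjusted p = 0.0769), WM-2474 240 h replicate 1 (adjusted p = 0.0946), WM-2474 240 h replicate 3 (adjusted p = 0.104), WM-2474 96 h replicate 1 (adjusted p = 0.0831) or WM-2474 96 h replicate 2 (adjusted p = 0.0813). The ratio of Nrp1 to Nrp2 levels was 4.73 to 5.63 at 240 h, against 2.83 to 3.58 at 96 h. Endothelial markers summed to 6.38 to 8.02 CPM at 240 h, against 9.04 to 10.7 CPM at 96 h, with Cldn5 at 0 and Tie1 and Robo4 at or under 3 counts in every library.

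Class A plexins, the usual signalling partners of neuropilins, did not move as one. Plxna4, which also binds Sema6a and Sema6b without a neuropilin, rose, and its gene lies on chromosome 6, 32144543 to 32588192. Plxna4 had 0.981, 1.32 and 1.41 CPKM in WM-2474 cultures at 240 h, against 0.685, 0.779 and 0.717 CPKM at 96 h. Plxna4 with DMSO had 1.07, 1.28 and 1.26 CPKM at 240 h, against 0.753, 0.592 and 0.792 CPKM at 96 h. Although low in level, it was higher in all 6 libraries at 240 h, with a log2 fold change of 0.78 ± 0.13 (SE, adjusted p = 5.97e-05) with WM-2474 and 0.76 ± 0.13 (SE, adjusted p = 5.67e-05) with DMSO. Plxna1, the most abundant of the class, had 53.2, 54.1 and 61.2 CPKM in WM-2474 cultures at 240 h, against 44.8, 48.4 and 49.0 CPKM at 96 h. Plxna1 with DMSO had 52.4, 54.9 and 54.1 CPKM at 240 h, against 42.9, 47.6 and 44.7 CPKM at 96 h. Its groups did not overlap within either treatment, and the log2 fold change was 0.25 ± 0.053 (SE, adjusted p = 0.000726) with WM-2474 and 0.26 ± 0.053 (SE, adjusted p = 0.000438) with DMSO. Plxna2, the other receptor of Sema6a and Sema6b, fell. Plxna2 had 6.80, 5.81 and 6.60 CPKM in WM-2474 cultures at 240 h, against 7.46, 8.67 and 9.26 CPKM at 96 h. Plxna2 with DMSO had 7.05, 5.57 and 6.49 CPKM at 240 h, against 7.72, 8.05 and 8.02 CPKM at 96 h. All libraries at 96 h lay above all libraries at 240 h, and the log2 fold change was -0.41 ± 0.083 (SE, adjusted p = 0.000869) with WM-2474 and -0.31 ± 0.082 (SE, adjusted p = 0.00628) with DMSO. Plxna3, a partner of neuropilin-2 in Sema3f signalling, had a log2 fold change of 0.11 ± 0.048 (SE, adjusted p = 0.0519) over both treatments. It passed the threshold without WM-2474 240 h replicate 3 (adjusted p = 0.0183), without DMSO 240 h replicate 3 (adjusted p = 0.0415) and without DMSO 96 h replicate 2 (adjusted p = 0.0439).

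Among class 3 semaphorins, the secreted ligands, 3 of 6 tested were called over both treatments, all lower, next to 46.5% of all genes called either way. Sema3a, which collapses growth cones through neuropilin-1 and class A plexins, had 8.94, 9.46 and 9.93 CPKM in WM-2474 cultures at 240 h, against 12.5, 11.9 and 13.1 CPKM at 96 h. Sema3a with DMSO had 10.6, 12.1 and 9.92 CPKM at 240 h, against 13.1, 12.9 and 12.2 CPKM at 96 h. The times did not overlap in either treatment. Its log2 fold change was -0.40 ± 0.065 (SE, adjusted p = 2.56e-05) with WM-2474 and -0.24 ± 0.064 (SE, adjusted p = 0.00423) with DMSO, and the DMSO call was lost without DMSO 240 h replicate 3 (adjusted p = 0.0829). Sema3e, which binds Plxnd1 directly with no need of a neuropilin, had 1.26, 1.92 and 1.40 CPKM in WM-2474 cultures at 240 h, against 2.51, 2.20 and 2.21 CPKM at 96 h. Sema3e with DMSO had 1.34, 1.66 and 1.29 CPKM at 240 h, against 2.17, 2.14 and 1.99 CPKM at 96 h. Every library at 240 h was below every library at 96 h, and the log2 fold change was -0.57 ± 0.13 (SE, adjusted p = 0.00136) with WM-2474 and -0.59 ± 0.13 (SE, adjusted p = 0.00093) with DMSO. Its receptor Plxnd1, known from vessel patterning, had 5.58 to 6.47 CPKM at 240 h, against 4.87 to 7.13 CPKM at 96 h and a log2 fold change over both treatments of 0.0056 ± 0.087 (SE, adjusted p = 0.966). Sema3d, a ligand of neuropilin-1, had 0.604 to 1.01 CPKM at 240 h, against 0.953 to 1.45 CPKM at 96 h, with a log2 fold change of -0.49 ± 0.12 (SE, adjusted p = 0.00108) over both treatments. These 3 ligands and Sema3c lie within 5.35 Mb of chromosome 5, in the order Sema3d, Sema3a, Sema3e, Sema3c from 12383161 to 17730268 (GRCm38.p6). Sema3c, needed for septation of the cardiac outflow tract, did not pass the test at 0.055 ± 0.085 (SE, adjusted p = 0.638). On chromosome 9, Sema3b and Sema3f lie 72257 bases apart. Sema3b, named as a tumour suppressor in human lung, did not pass at -0.011 ± 0.072 (SE, adjusted p = 0.916), nor did Sema3f at -0.23 ± 0.15 (SE, adjusted p = 0.248).

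Class 4 semaphorins, which span the membrane and signal mainly through class B plexins, had 3 members called of 6 tested, all lower, again next to 46.5% of all genes. Sema4c, a ligand of Plxnb2, had 9.49, 7.86 and 8.29 CPKM in WM-2474 cultures at 240 h, against 10.2, 10.1 and 11.4 CPKM at 96 h. Sema4c with DMSO had 7.33, 7.06 and 8.22 CPKM at 240 h, against 8.91, 10.4 and 9.91 CPKM at 96 h. Its log2 fold change was -0.31 ± 0.083 (SE, adjusted p = 0.00592) with WM-2474 and -0.34 ± 0.084 (SE, adjusted p = 0.00267) with DMSO, the groups did not overlap within either treatment, and the WM-2474 call was lost without WM-2474 240 h replicate 2 (adjusted p = 0.0622). Sema4b had 5.44, 5.50 and 4.74 CPKM in WM-2474 cultures at 240 h, against 6.21, 7.45 and 6.76 CPKM at 96 h. Sema4b with DMSO had 4.91, 4.20 and 5.21 CPKM at 240 h, against 6.23, 6.83 and 7.59 CPKM at 96 h. It was lower in all libraries at 240 h, with a log2 fold change of -0.37 ± 0.098 (SE, adjusted p = 0.00497) with WM-2474 and -0.49 ± 0.097 (SE, adjusted p = 0.000266) with DMSO. Sema4a, an immune and retinal semaphorin that binds class B and D plexins, had only 0.0787 to 0.246 CPKM at 240 h, against 0.231 to 0.396 CPKM at 96 h, and its log2 fold change over both treatments was -1.08 ± 0.30 (SE, adjusted p = 0.00403). Sema4a entered the test through its 96 h libraries, at 12 to 16 counts each, and held 2 to 9 counts at 240 h. Its call for time therefore carries little weight, and it was not called with WM-2474 (adjusted p = 0.138). Sema4d, the ligand of Plxnb1, did not pass at 0.070 ± 0.30 (SE, adjusted p = 0.87), and Sema4f and Sema4g gave 0.044 ± 0.17 (SE, adjusted p = 0.852) and -0.014 ± 0.11 (SE, adjusted p = 0.928). Among the receptors, Plxnb1 had 1.89 to 2.42 CPKM at 240 h, against 2.03 to 3.02 CPKM at 96 h and fell by 0.31 ± 0.084 on the log2 scale (SE, adjusted p = 0.00401). Plxnb2, the most abundant member, had 89.5 to 102 CPKM at 240 h, against 85.6 to 98.5 CPKM at 96 h and a log2 fold change of 0.014 ± 0.036 (SE, adjusted p = 0.777). With library totals in place of TMM, Plxnb2 had a log2 fold change of -0.11 (adjusted p = 0.00703), and the median of all genes moved to -0.13.

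Class 6 semaphorins, membrane ligands of class A plexins, had 3 members called of 4 tested, all lower, next to the same 46.5%. Sema6b, a ligand of Plxna4 and Plxna2, had the largest decrease of the called members over both treatments, at -1.19 ± 0.20 (SE, adjusted p = 1.65e-05), and its gene lies on chromosome 17, 56123085 to 56140343 (minus strand). Sema6b had 0.327, 0.421 and 0.378 CPKM in WM-2474 cultures at 240 h, against 0.718, 0.866 and 0.793 CPKM at 96 h. Sema6b with DMSO had 0.427, 0.171 and 0.343 CPKM at 240 h, against 0.771, 0.574 and 1.10 CPKM at 96 h. The times did not overlap in either treatment, although the DMSO libraries at 96 h spread widely, and the log2 fold change was -1.05 ± 0.28 (SE, adjusted p = 0.00535) with WM-2474 and -1.34 ± 0.27 (SE, adjusted p = 0.00042) with DMSO. Sema6d, which acts through Plxna1 in the developing heart and in osteoclasts, had 0.995 to 1.52 CPKM at 240 h, against 1.5 to 1.82 CPKM at 96 h and a log2 fold change over both treatments of -0.38 ± 0.092 (SE, adjusted p = 0.00134). Sema6c had 2.48 to 3.43 CPKM at 240 h, against 3.15 to 4.55 CPKM at 96 h and one of -0.36 ± 0.10 (SE, adjusted p = 0.00434). Sema6a, the ligand of Plxna2 and Plxna4 in the mouse nervous system, had 1.74 to 2.26 CPKM at 240 h, against 1.54 to 2.26 CPKM at 96 h and did not pass at 0.16 ± 0.086 (SE, adjusted p = 0.128).

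**Figure D3:**
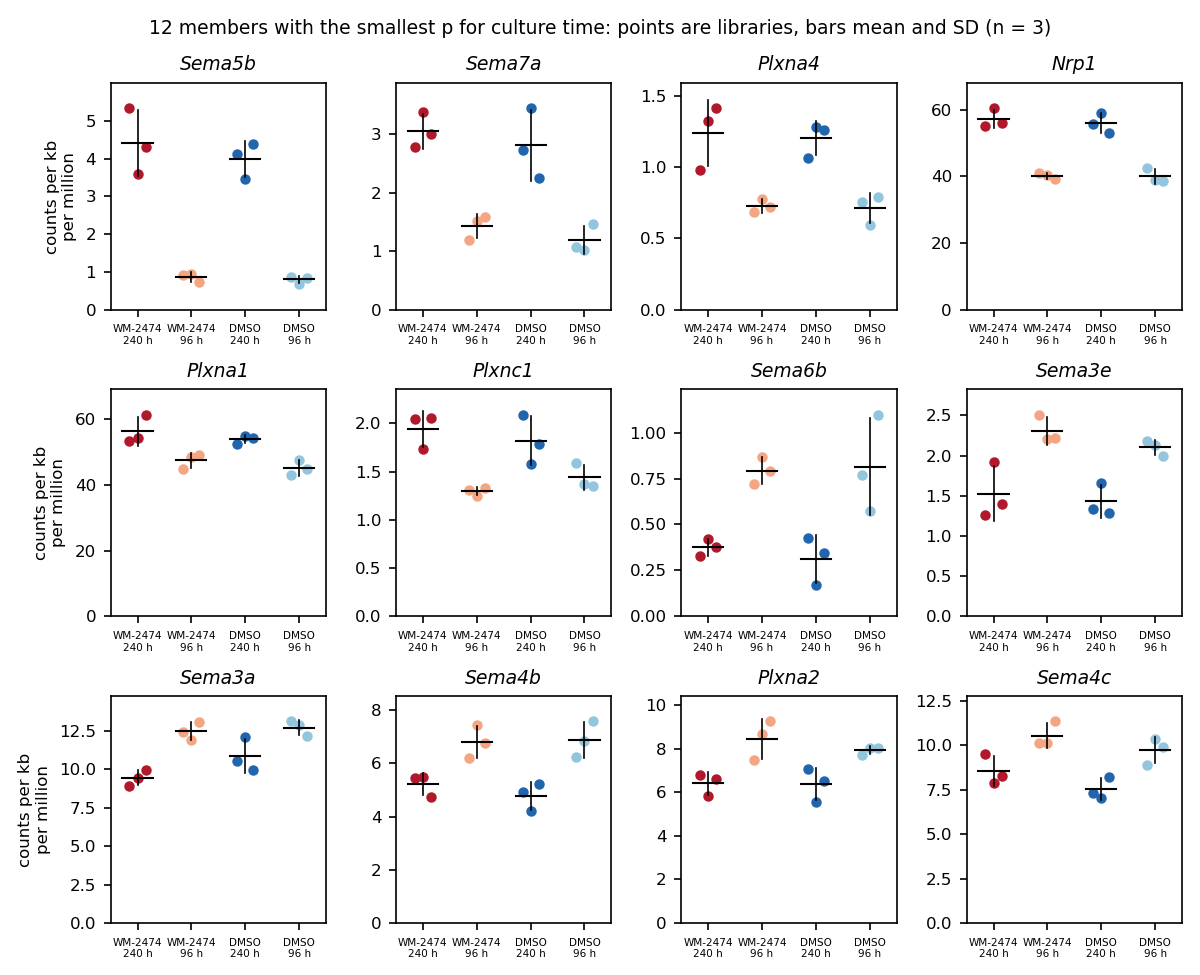
Levels of the 12 members with the smallest p for culture time over both treatments, in CPKM on linear axes from 0, with each library as a point and the mean and SD of 3 libraries as bars. Sema5b, Sema7a, Plxna4, Nrp1, Plxna1 and Plxnc1 are higher at 240 h and the other 6 are lower at 240 h, and no member passed between WM-2474 and DMSO.

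Summed over a role, levels differed less between the times than those of the members with the largest changes. Semaphorins summed to 84.5 ± 3.82 CPKM in WM-2474 cultures at 240 h, against 88.3 ± 1.96 CPKM at 96 h. With DMSO the sum was 79.4 ± 0.942 CPKM at 240 h, against 87.0 ± 3.53 CPKM at 96 h. Plexins summed to 179.7 ± 9.27 CPKM with WM-2474 at 240 h, against 169 ± 10.3 CPKM at 96 h, and to 169.7 ± 1.68 CPKM with DMSO at 240 h, against 162.3 ± 9.24 CPKM at 96 h. The neuropilin sum, mostly Nrp1, was 68.8 ± 3.30 CPKM with WM-2474 at 240 h, against 52.4 ± 2.14 CPKM at 96 h. With DMSO it was 66.2 ± 3.94 CPKM at 240 h, against 52.4 ± 2.73 CPKM at 96 h (SD, n = 3 each). Of these 3 sums, that of the neuropilins was the one in which the 2 times lay further apart than their SDs in both treatments. Within the plexins, class A summed to 72.4 ± 4.04 CPKM with WM-2474 at 240 h, against 64.3 ± 3.18 CPKM at 96 h, and to 69.1 ± 0.327 CPKM with DMSO at 240 h, against 61.03 ± 2.74 CPKM at 96 h. Class 4 semaphorins summed to 17.0 ± 1.12 CPKM with WM-2474 at 240 h, against 20.5 ± 1.18 CPKM at 96 h, and to 15.1 ± 1.15 CPKM with DMSO at 240 h, against 19.8 ± 1.44 CPKM at 96 h. Such subclass sums could thus lie apart where the sum of the whole role did not.

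The promoters of Sema5b, Sema7a and Nrp1, which rose, and of Sema6b, which had the largest decrease, are shown so that starts of genes that moved in opposite directions can be set side by side. RefSeq windows on GRCm38.p6, from 250 bases before to 50 after the start of transcription, were matched for 26 of the 31 members, 37 windows in all. The printed windows of Sema7a and Nrp1 lie wholly within the gene spans given above, as the starts used lie downstream of the first base of the gene. Of the 37 windows Sema6b has 2, and the more upstream one on its strand is printed. Those of Sema5b (chr16:35541112-35541411, plus strand), Sema7a (chr9:57939862-57940161, plus strand), Nrp1 (chr8:128358823-128359122, plus strand) and Sema6b (chr17:56140294-56140593, minus strand) are given from 5′ to 3′ with CG dinucleotides in capitals.
Sema5b: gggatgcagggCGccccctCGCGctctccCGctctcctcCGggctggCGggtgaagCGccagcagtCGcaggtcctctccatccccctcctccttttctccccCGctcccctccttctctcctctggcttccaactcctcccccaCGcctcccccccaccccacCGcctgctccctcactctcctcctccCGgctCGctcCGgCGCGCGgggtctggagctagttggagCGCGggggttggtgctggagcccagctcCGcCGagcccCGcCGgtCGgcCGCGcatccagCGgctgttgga
Sema7a: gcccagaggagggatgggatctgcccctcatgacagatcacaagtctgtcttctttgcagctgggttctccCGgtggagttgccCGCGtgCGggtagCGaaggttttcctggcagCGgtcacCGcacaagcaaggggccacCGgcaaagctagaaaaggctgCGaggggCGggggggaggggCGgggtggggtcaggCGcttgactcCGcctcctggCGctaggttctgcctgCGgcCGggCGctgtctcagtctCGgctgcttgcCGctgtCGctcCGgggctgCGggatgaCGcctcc
Nrp1: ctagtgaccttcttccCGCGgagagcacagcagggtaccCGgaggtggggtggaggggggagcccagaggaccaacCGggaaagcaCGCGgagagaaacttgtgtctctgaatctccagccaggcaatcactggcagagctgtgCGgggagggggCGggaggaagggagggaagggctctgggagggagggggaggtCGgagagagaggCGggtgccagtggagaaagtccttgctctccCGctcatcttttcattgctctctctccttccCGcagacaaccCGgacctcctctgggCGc
Sema6b: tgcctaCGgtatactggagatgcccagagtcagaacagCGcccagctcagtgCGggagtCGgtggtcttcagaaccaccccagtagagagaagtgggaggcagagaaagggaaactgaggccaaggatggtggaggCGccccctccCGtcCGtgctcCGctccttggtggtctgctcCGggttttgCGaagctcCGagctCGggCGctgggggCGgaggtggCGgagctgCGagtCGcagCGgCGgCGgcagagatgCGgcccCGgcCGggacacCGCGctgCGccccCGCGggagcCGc
The windows hold 27 CG dinucleotides in Sema5b, 23 in Sema7a, 14 in Nrp1 and 29 in Sema6b, and the other window of Sema6b holds 6. Family windows had a median of 15 and a range of 2 to 42, next to a median of 7 over all 32851 promoters of the table. The letters GGGCGG, the core of the Sp1 box, stood on either strand in 27 of 37 family windows (73%), against 35.7% of all promoters, and were not in the window of Sema5b. Those 27 windows belong to 21 of the 26 members. The background was every promoter of the table, whether or not its gene was tested here. These letters hold a CG themselves, and the part of the higher CG count in their share was not tested. The AP-1 letters TGANTCA stood on either strand in 3 family windows (8.11%), 1 each of Sema4c, Sema4d and Sema6b, against 7.81% of all promoters. The Sema6b window that held them is its other one, chr17:56133803-56134102, and not the one printed. These are matches of letters only.

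The 2 treatments, which share no library in this comparison, gave the same direction in every member called in both. They were tested in 1 fit with a common estimate of spread, and same-numbered libraries of the 2 treatments deviated together at 96 h. The 2 comparisons can therefore not be taken as independent. With WM-2474, 6 members were higher and 8 lower at 240 h (14 of 29, where 15.9% of all genes were called higher, 14.8% lower and 30.7% either way). With DMSO, 6 were higher and 11 lower (17 of 29, where 17.5% of all genes were called higher, 17.3% lower and 34.8% either way). The DMSO count of lower members was 7 without DMSO 240 h replicate 3. Without DMSO 240 h replicates 1 and 2, the family's median log2 fold change with DMSO was -0.10, against -0.12 with all libraries. Fewer members and fewer of all genes were called with DMSO in that fit. The libraries at 240 h and 96 h did not overlap in 15 members with WM-2474, where 42.4% of all genes were separated, and in 14 members with DMSO, where 45.7% were. With 1 DMSO library left at 240 h, 21 members and 69.3% of all genes were separated with DMSO. Called in both treatments were 13 members, which is 92.9% of the WM-2474 calls and 76.5% of the DMSO calls. Without DMSO 240 h replicates 1 and 2, Plxnc1, Sema4c and Sema6d had DMSO log2 fold changes of 0.31, -0.24 and -0.34 and were no longer called with DMSO. Over all genes 23.8% were called in both in the same direction, which is 77.6% of the WM-2474 calls and 68.6% of the DMSO calls. The 6 shared higher members were Nrp1, Plxna1, Plxna4, Plxnc1, Sema5b and Sema7a, and the 7 shared lower members were Plxna2, Sema3a, Sema3e, Sema4b, Sema4c, Sema6b and Sema6d. Sema6c passed with WM-2474 and Nrp2, Plxnb1, Sema3d and Sema4a passed with DMSO, and the difference of the time effect between treatments was called for 0 members and 0.00% of all genes. At an unadjusted p under 0.05, 0 members and 625 genes passed the test of that difference, and DESeq2 and limma-voom also called 0 members. Sema3d passed with WM-2474 as well without WM-2474 96 h replicate 2 (adjusted p = 0.0127), as did Plxnb1 without WM-2474 96 h replicate 1 (adjusted p = 0.0103) or DMSO 96 h replicate 1 (adjusted p = 0.0336). Plxna3 passed with WM-2474 without WM-2474 240 h replicate 3 (adjusted p = 0.028), and Sema6c with DMSO without DMSO 96 h replicate 1 (adjusted p = 0.021) or DMSO 240 h replicate 1 (adjusted p = 0.0307). Sema6d in WM-2474 cultures lost its call without WM-2474 240 h replicate 1 (adjusted p = 0.132), WM-2474 240 h replicate 3 (adjusted p = 0.114), WM-2474 96 h replicate 1 (adjusted p = 0.118), WM-2474 96 h replicate 2 (adjusted p = 0.0515) or WM-2474 96 h replicate 3 (adjusted p = 0.068). It was lost in DESeq2 (adjusted p = 0.091) and limma-voom (adjusted p = 0.0518) too, and DESeq2 also lost Sema6c with WM-2474 (adjusted p = 0.0883), Sema4a with DMSO (adjusted p = 0.0718) and Plxnc1 with DMSO (adjusted p = 0.0848). Sema6d with DMSO lost it without DMSO 240 h replicate 1 (adjusted p = 0.0804) or DMSO 96 h replicate 1 (adjusted p = 0.0808). Sema6c with WM-2474 lost its call without DMSO 240 h replicate 3 (adjusted p = 0.0512), DMSO 96 h replicate 2 (adjusted p = 0.0517), WM-2474 240 h replicate 2 (adjusted p = 0.0951), WM-2474 240 h replicate 3 (adjusted p = 0.153), WM-2474 96 h replicate 2 (adjusted p = 0.215) or WM-2474 96 h replicate 3 (adjusted p = 0.0573). Plxnb1 with DMSO did so without DMSO 240 h replicate 1 (adjusted p = 0.0695), DMSO 240 h replicate 3 (adjusted p = 0.147), DMSO 96 h replicate 2 (adjusted p = 0.0991) or DMSO 96 h replicate 3 (adjusted p = 0.149). Sema4a with DMSO did so without DMSO 240 h replicate 3 (adjusted p = 0.191), DMSO 96 h replicate 2 (adjusted p = 0.0559) or DMSO 96 h replicate 3 (adjusted p = 0.0501). Nrp2 with DMSO did so without DMSO 240 h replicate 1 (adjusted p = 0.103), DMSO 240 h replicate 3 (adjusted p = 0.19), DMSO 96 h replicate 1 (adjusted p = 0.12), DMSO 96 h replicate 2 (adjusted p = 0.135), WM-2474 240 h replicate 1 (adjusted p = 0.0793), WM-2474 240 h replicate 2 (adjusted p = 0.0504) or WM-2474 96 h replicate 1 (adjusted p = 0.0716).

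WM-2474 was set against DMSO at each time. No member was called at 240 h, at 96 h or over both times in edgeR or limma-voom. DESeq2 called 0 as well, but at 240 h it gave 22 of the 29 members no adjusted p, so those could not be called. The share of all genes called was 0.0296% at 240 h, 0.00% at 96 h and 0.0148% over both times in edgeR, all higher. At an unadjusted p under 0.05, 2 members passed at 240 h, 0 at 96 h and 3 over both times, while 1099, 283 and 763 of all genes did. In a blocked fit of the 96 h libraries alone, which pairs them by replicate number, 3 genes were called, none of them a member. At 240 h, same-numbered libraries correlated less in their deviations from the group mean (0.0971, 0.114 and 0.0397) than at 96 h. Even so, 6 of 6 libraries correlated best with their own number. The like fit of the 240 h libraries called 79 genes higher and 12 lower, again with 0 members. The smallest p at 240 h was that of Sema3a, at 8.94, 9.46 and 9.93 CPKM in WM-2474 cultures, against 10.6, 12.1 and 9.92 CPKM in DMSO cultures. One WM-2474 library lay just above the lowest DMSO library. The log2 fold change was -0.19 ± 0.067 (SE, adjusted p = 0.512), with a 95% interval of -0.32 to -0.048. Plxna3 had 9.53, 8.40 and 7.84 CPKM with WM-2474 at 240 h, against 8.25, 7.60 and 7.42 CPKM with DMSO, and 7.68, 7.86 and 7.54 CPKM with WM-2474 at 96 h, against 7.21, 7.71 and 7.11 CPKM with DMSO. The groups overlapped at both times. Its log2 fold change was 0.16 ± 0.069 (SE, adjusted p = 0.571) at 240 h, with an interval of 0.015 to 0.30, and 0.11 ± 0.048 (SE, adjusted p = 0.833) over both times. Sema3a over both times gave -0.11 ± 0.046 (SE, adjusted p = 0.842).

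At 96 h the smallest p were those of Sema4c and Sema6a. Sema4c had 10.2, 10.1 and 11.4 CPKM with WM-2474, against 8.91, 10.4 and 9.91 CPKM with DMSO, and a log2 fold change of 0.12 ± 0.079 (SE, adjusted p = 1) with an interval of -0.044 to 0.28. Sema6a had 2.15, 1.72 and 2.26 CPKM with WM-2474, against 1.84, 1.54 and 2.06 CPKM with DMSO, and a log2 fold change of 0.17 ± 0.12 (SE, adjusted p = 1) with an interval of -0.079 to 0.41. Both pairs of groups overlapped as wholes. Libraries of the same replicate number were taken to pair at 96 h from these data, as the labels do not state it. Between them, Sema6a and Plxna3 were higher with WM-2474 in 3 of 3 pairs and Sema4c in 2 of 3. Plxna1, Plxnb1, Plxnb2, Sema3e, Sema6d and Sema7a were also higher in 3 of 3 pairs, and Plxnc1 in 0 of 3. The share over all genes was not counted. In the blocked fit of these libraries Sema6a changed by 0.18 ± 0.097 (SE, adjusted p = 0.826), Sema4c by 0.12 ± 0.060 (SE, adjusted p = 0.77) and Plxna3 by 0.070 ± 0.053 (SE, adjusted p = 0.884). In that fit 2 of 29 members, Plxna1 and Sema4c, had an unadjusted p under 0.05. So did 846 of all 13377 genes in it, a like share. The blocked edgeR fit of the 240 h libraries alone had 5 of 27 members and 1439 of 12777 genes under 0.05. With the replicate block on all 12 libraries, 8 of 29 members and 861 of 13499 genes were under 0.05 over both times. None of these members passed after adjustment. For Sema5b, the interval of the WM-2474 difference was -0.16 to 0.36 at 240 h and -0.30 to 0.51 at 96 h on the log2 scale. For Nrp1 it was -0.068 to 0.14 at 240 h and -0.10 to 0.11 at 96 h. The interval lay within 1.5-fold either way in 24 of 29 members at 240 h, the exceptions being Sema3f, Sema4a, Sema4d, Sema4f and Sema6b, and in 26 at 96 h, the exceptions being Sema4a, Sema4d and Sema7a. The 3 libraries of each group did not overlap for Plxnd1 and Sema3f at 240 h, where 14.3% of all genes were separated, and for Plxnc1 and Sema3e at 96 h, where 7.46% were. An exact permutation test of 3 libraries against 3 cannot give a two-sided p below 0.1. At 240 h the fitted difference was above 0 in 27 of 29 members (93.1%), with a median of 0.14, while 50.6% of all genes were above 0. Without 1 library at a time, 22 to 27 members were above 0 and the median was 0.092 to 0.14. Without DMSO 240 h replicates 1 and 2 it was 24 members with a median of 0.11. At 96 h, 18 members (62.1%) were above 0, with a median of 0.016. The 29 values at a time rest on the same 6 libraries, so they are not independent.

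**Figure D4:**
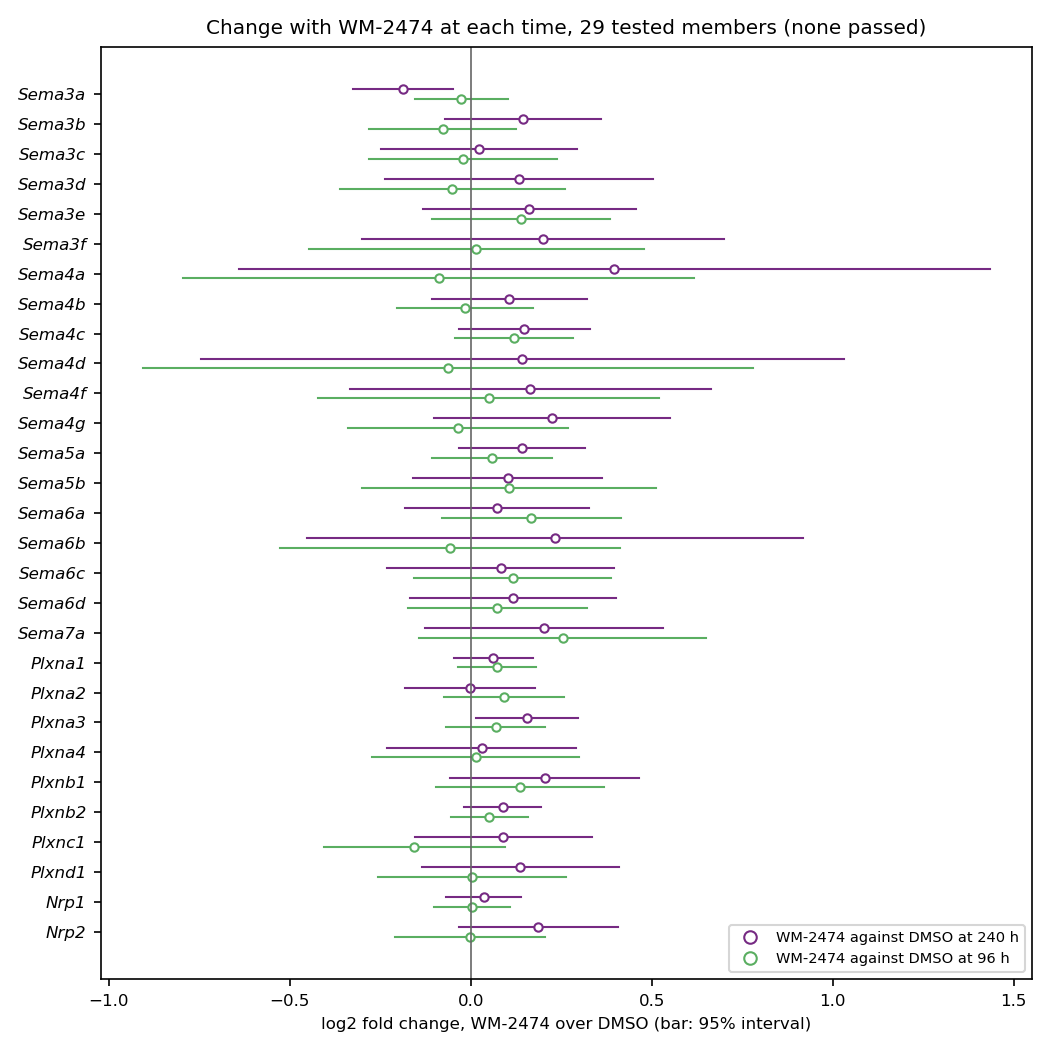
Difference between WM-2474 and DMSO at 240 h and at 96 h for the 29 tested members, as log2 fold changes with 95% intervals; open points mark that no member passed an adjusted p of 0.05. At 240 h most points lie a little to the right of 0, with a median of 0.14, and the widest intervals belong to the low members Sema4a and Sema4d.

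Genes that carry the signal of plexins and neuropilins inside the cell were also measured. Of 38 listed, 37 were tested, and over both treatments 16 were higher at 240 h and 9 lower, with a median log2 fold change of 0.088. For this list and those that follow, the shares of all genes were 23.0% higher, 23.6% lower and 46.5% either way. Rnd3, a small GTPase of the Rnd group, had 172 to 191 CPM at 240 h, against 113 to 127 CPM at 96 h and changed by 0.65 ± 0.037 (SE, adjusted p = 9.67e-14). Fyn, the kinase that phosphorylates collapsin response mediators after Sema3a, had 158 to 174 CPM at 240 h, against 104 to 125 CPM at 96 h and changed by 0.55 ± 0.038 (SE, adjusted p = 4.34e-12). The collapsin response mediators Crmp1 and Dpysl2 fell. Crmp1 had 15.3 to 19.2 CPM at 240 h, against 32.5 to 38.3 CPM at 96 h and changed by -1.01 ± 0.062 (SE, adjusted p = 5.12e-13), and Dpysl2 changed by -0.58 ± 0.047 (SE, adjusted p = 1.29e-10). The ranges at the 2 times did not overlap for Rnd3, Fyn or Crmp1. Of 18 other co-receptors and binding partners 12 were tested, with 6 higher and 6 lower and a median of -0.053. The collagen-binding integrin subunit Itga1 changed by 1.10 ± 0.057 (SE, adjusted p = 1.67e-14) and the proteoglycan gene Cspg4 by 0.69 ± 0.038 (SE, adjusted p = 5.61e-14). Met, the receptor kinase that associates with class B plexins, changed by -0.40 ± 0.050 (SE, adjusted p = 2.45e-07), and Erbb2, another such kinase, by -0.24 ± 0.046 (SE, adjusted p = 9.31e-05). All 8 VEGF ligands and receptors that use neuropilins were tested, with 3 higher and 4 lower and a median of -0.23. Flt1 changed by 1.09 ± 0.12 (SE, adjusted p = 6.73e-05) and Pgf, a ligand of Flt1 and neuropilins, by 0.46 ± 0.12 (SE, adjusted p = 0.00201). Flt4, the receptor of VEGF-C, changed by -0.79 ± 0.059 (SE, adjusted p = 2.34e-11) and Vegfb by -0.78 ± 0.069 (SE, adjusted p = 3.48e-08). With WM-2474 against DMSO, 0 genes of these lists were called at either time by edgeR.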

How the data were processed

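Whole-number gene counts of 12 libraries were deposited by the authors as 1 table; featureCounts and the mm10 build are named in the submitters' processing notes, and the TruSeq stranded mRNA kit per the labels' protocols. The aligner, the annotation and the strand setting of the counting are not given in the sources used here. Of 27179 table rows, 874 without an identifier (0.547% to 0.648% of counts) were left out. Symbols came from a RefSeq gene table, which named 25275 identifiers (96.1%). Genes annotated over a member that were counted held at most 12 counts in any library. Others, such as Gm40415 over Plxna1, had no counts of their own.

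edgeR 4.0.16 (R 4.3.3) was used with its expression filter, TMM factors (0.943 to 1.05) and a robust quasi-likelihood fit with 1 coefficient per group, adjusted by Benjamini-Hochberg. The fit was run on simulated counts with 1 spread for all genes and no replicate pairing or treatment effect, unlike these libraries. Over both treatments it called 45 of 50 genes raised 1.5-fold and 43 of 47 lowered to 0.667-fold. It also called 17 of 13174 unchanged genes. DESeq2 1.42.0, limma-voom 3.58.1, other scaling and filters, a replicate block and fits with libraries left out were alternatives. Deviations of WM-2474 and DMSO libraries with the same replicate number at 96 h were correlated at 0.301, 0.235 and 0.191, so the numbers were taken to pair those libraries; those of the other comparisons did not all pass 0.1. No pair of replicates agreed within sampling noise (chi-square per degree of freedom 2.02 to 4.99).

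Members given per library were the 12 with the smallest p for time over both treatments, the 2 with the smallest p in each treatment comparison, Sema5b and Nrp1; Nrp2 was added after its values were seen. Members of other lists were the 2 with the smallest p in each direction. The members and lists were chosen with earlier results of these data known.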

Additional observations from a re-analysis of the deposited data

How the results depend on the processing

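Of the 18 members called for time over both treatments, all but Nrp2 kept their call and direction in the 20 alternatives run. With 1 library left out at a time, the counts over both treatments were 6 to 7 higher and 11 to 12 lower. With WM-2474 they were 6 to 7 higher and 6 to 9 lower, and with DMSO 5 to 6 higher and 7 to 11 lower. Without DMSO 240 h replicates 1 and 2 together, fewer members and fewer of all genes were called with DMSO. In that fit Sema3d and Sema4c had DMSO log2 fold changes of -0.46 and -0.24 and were among those lost. For WM-2474 against DMSO at 240 h, all genes had 39 called higher and 8 lower without a filter, 11 and 0 in DESeq2, and 79 and 12 with the replicate block and only the libraries compared, against 4 and 0. The treatment comparisons and the difference of the time effects had 0 members in all alternatives. With library totals, all genes split into 1536 higher and 5996 lower over both treatments, against 3102 and 3181 with TMM, and the family into 6 and 13. Plxnb2 then had -0.11 in place of 0.014, and Plxna1 with WM-2474 lost its call (0.11, adjusted p = 0.073). With the replicate block, the family counts were 6 higher and 10 lower with WM-2474 and 6 and 11 with DMSO. Over both treatments they were 7 and 12. All genes then had 2226 higher and 2099 lower with WM-2474, 2458 and 2446 with DMSO and 3160 and 3238 over both treatments. Every library correlated best with its own number in 3 of 4 comparisons, a hint from the data only. The causes were not tested. Counts of 0 to 12 per library limit Sema3g and Plxnb3, and counts of 2 to 16 limit Sema4a. DESeq2 gave 22 of 29 members no adjusted p for WM-2474 at 240 h.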

Other observations

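Other families of guidance molecules also had members that were higher and members that were lower at 240 h than at 96 h over both treatments, where 23.0% of all genes were higher, 23.6% lower and 46.5% either way. Of 20 Slit, Robo, netrin and netrin receptor genes 14 were tested, with 4 higher, 2 lower and a median log2 fold change of 0.036. Slit3, a secreted ligand of Robo receptors, had 725 to 886 CPM at 240 h, against 478 to 502 CPM at 96 h and changed by 0.71 ± 0.031 (SE, adjusted p = 5.44e-16). Ntn4, a netrin of basement membranes, changed by 0.99 ± 0.048 (SE, adjusted p = 3.21e-15), the netrin receptor Unc5c by -1.17 ± 0.12 (SE, adjusted p = 9.79e-08) and Neo1 by -0.13 ± 0.033 (SE, adjusted p = 0.00185). Of 22 ephrin and Eph receptor genes 17 were tested, with 4 higher, 8 lower and a median of -0.18. Efna3 changed by 0.96 ± 0.13 (SE, adjusted p = 1.7e-06) and Epha4 by 0.51 ± 0.075 (SE, adjusted p = 5.4e-06), while Epha2 changed by -0.68 ± 0.050 (SE, adjusted p = 1.59e-11) and Epha1 by -0.89 ± 0.078 (SE, adjusted p = 4.92e-10) (edgeR's quasi-likelihood test, Benjamini-Hochberg adjusted). No gene of either list was called between WM-2474 and DMSO.

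Sema3f and Plxnd1 varied by replicate number at 96 h in the same way in both treatments. Sema3f had 12.5, 19.8 and 13.9 CPKM in replicates 1, 2 and 3 with WM-2474 and 11.8, 19.0 and 15.1 CPKM with DMSO, so replicate 2 was highest in both. Plxnd1 had 4.87, 7.13 and 6.16 CPKM with WM-2474 and 5.27, 6.98 and 5.90 CPKM with DMSO, with replicate 1 lowest and replicate 2 highest in both. At 240 h Sema3f had 14.9, 12.9 and 14.1 CPKM with WM-2474 and 11.8, 12.9 and 11.8 CPKM with DMSO, where the replicates kept no such common order. Plxnd1 at 240 h had 6.15, 6.47 and 6.34 CPKM with WM-2474 and 5.84, 5.95 and 5.58 CPKM with DMSO, with replicate 2 highest in both and different replicates lowest. These values were picked after they were seen, and no test was made of them.

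The marker lists not described with the family had low or mixed levels. Epithelial markers summed to 1.42 to 3.26 CPM at 240 h, against 2.10 to 6.25 CPM at 96 h, and Krt8 and Krt18 fell. Krt8 had only 0 to 0.481 CPM at 240 h, against 0.336 to 1.99 CPM at 96 h. In the 240 h libraries 3 counts equal 0.120 to 0.424 CPM, so the fall of Krt8 carries little weight. Macrophage markers summed to 4.97 to 7.91 CPM at 240 h, against 6.80 to 9.31 CPM at 96 h, and Lyz2 fell by 1.94 on the log2 scale. Lyz2 had 0.272 to 1.39 CPM at 240 h, against 1.93 to 2.81 CPM at 96 h, so its fall rests on few counts at 240 h. The B lineage list, which is mostly Ebf1, summed to 27.6 to 42.0 CPM at 240 h, against 25.4 to 31.0 CPM at 96 h, and Ebf1 itself changed by 0.16 ± 0.088 (SE, adjusted p = 0.158) in edgeR.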
